A study of Mus musculus with 9 samples.

Results

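The genes described are 9 transcription factors that mark interneuron classes of the spinal cord and hindbrain: Lhx1, Lhx5, Evx1, Evx2, Gata2, Gata3, Sim1, Pou4f1 and Barhl1. They were chosen by name, and they are 9 of the 54532 genes in the deposited count table. RNA was sequenced from neural tube organoids, small neural cysts grown clonally in Matrigel from mouse R1 embryonic stem cells that carry a FoxA2-Venus reporter, a fluorescent read-out of the floor plate gene Foxa2. The organoids were kept in N2B27 medium, which was changed on day 2, and were collected 66 h later and sorted by fluorescence. Each of 3 groups has 3 libraries. The SAG GFP+ libraries hold reporter-positive cells of the samples titled SAG, an agonist of Smoothened in the Sonic hedgehog pathway, with no dose or time of addition in the labels. The RA GFP+ libraries hold reporter-positive cells of organoids given all-trans retinoic acid at 250 nM or 250 µM (the sources give both units), and the RA GFP- libraries hold reporter-negative cells of the RA organoids. A GFP- group for SAG was not analysed here, so SAG GFP+ cells can be set only against the 2 RA populations. All libraries come from 1 stem cell line, and a sorted fraction mixes every cell type that passes the gate.

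The developing neural tube is divided along its dorsoventral axis into progenitor domains by opposing signals, among them Sonic hedgehog from the floor plate. Each domain yields a neuron class that is known by a small set of transcription factors: Sim1 for the ventral-most V3 interneurons, Gata2 and Gata3 for the inhibitory V2b interneurons, Evx1 and Evx2 for the commissural V0 interneurons, Lhx1 and Lhx5 for several inhibitory dorsal and ventral classes, and Pou4f1 (Brn3a) and Barhl1 for dorsal excitatory classes. None of the 9 is exclusive to these neurons. Sim1 is also a gene of the hypothalamus, Gata2 of blood and trophoblast, Gata3 of surface ectoderm and trophoblast, Lhx1 of the node and kidney, Evx1 of the primitive streak, and Pou4f1 of sensory ganglia.

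The start regions are printed for 3 genes that the results below single out. Sim1 and Gata3 were higher in RA GFP+ than in RA GFP- cells, and most Evx1 counts came from 1 SAG library. A link between these sequences and the levels was not tested. Each sequence is the 250 bases before the start of transcription annotated by RefSeq on GRCm38.p6, written 5′ to 3′ on the gene's own strand, and capitals mark each CG dinucleotide.
Sim1 (chr10:50895401-50895650, plus strand): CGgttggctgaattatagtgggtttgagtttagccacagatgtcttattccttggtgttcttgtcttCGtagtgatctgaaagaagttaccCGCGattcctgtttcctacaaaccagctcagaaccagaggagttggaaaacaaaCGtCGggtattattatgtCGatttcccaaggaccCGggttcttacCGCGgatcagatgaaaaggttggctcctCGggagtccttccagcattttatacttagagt
Gata3 (chr2:9878601-9878850, minus strand): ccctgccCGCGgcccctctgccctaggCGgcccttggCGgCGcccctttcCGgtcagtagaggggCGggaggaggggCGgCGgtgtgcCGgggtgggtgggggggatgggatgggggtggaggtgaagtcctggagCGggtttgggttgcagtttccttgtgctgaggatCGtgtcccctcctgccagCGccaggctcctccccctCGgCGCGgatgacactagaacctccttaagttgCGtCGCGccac
Evx1 (chr6:52313248-52313497, plus strand): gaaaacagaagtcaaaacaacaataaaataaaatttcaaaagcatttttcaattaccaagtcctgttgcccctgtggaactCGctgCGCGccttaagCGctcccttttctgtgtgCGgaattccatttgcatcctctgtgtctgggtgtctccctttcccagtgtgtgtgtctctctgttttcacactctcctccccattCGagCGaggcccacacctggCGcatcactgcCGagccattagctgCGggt
The Sim1 window holds 11 CG dinucleotides at 45.6% G and C, the Evx1 window 10 at 49.6%, and the Gata3 window 19 at 70.0%. Across 32851 annotated windows of this length the median was 6 CG dinucleotides and 52.4% G and C. The RefSeq table held a window for 8 of the 9 genes, Lhx5 being the one without. A search on both strands for TGTTTAC (a forkhead motif, found in 3.17% of all windows), TGGGTGGTC (a Gli motif, 0.225%), CAGCTG (an E-box, 13.0%), AGATAA (the GATA motif, 9.99%) and TAATTA (a homeodomain motif, 4.84%) found none of them in the 3 printed windows. Among the other members, CAGCTG occurred in the Pou4f1 window, 118 bases before the start, and in both Barhl1 windows, 99 and 15 bases before the start.

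Library totals ran between 25281871 and 29763765 reads assigned to genes. Levels are given as CPM, read counts relative to each library's scaled total over the tested genes. A gene is called where the adjusted p of edgeR's quasi-likelihood test over 16772 genes is under 0.05. The titles call the libraries biological replicates without saying what was separate between them, and the p-values measure only the spread between these libraries. Foxa2 itself stood at 326, 212 and 205 CPM in SAG GFP+ libraries and at 184, 157 and 133 CPM in RA GFP+ libraries, against 2.47, 1.33 and 2.51 CPM in RA GFP- libraries. The sort is thus visible in the gene that the reporter reads, which was 0.65 log2 units higher in SAG GFP+ than in RA GFP+ cells (SE 0.22, adjusted p = 0.0497). One library stands apart. SAG GFP+ replicate 1 lay at a root mean square distance of 0.699 log2 units from the mean of its group's other libraries, against 0.441 to 0.614 for the other 8 libraries. It held 110 CPM of T (Brachyury, a gene of the primitive streak and notochord), against 7.94 and 9.81 CPM in SAG GFP+ replicates 2 and 3. Values of this library are given apart for some of the results where it sets a group's range or a call.

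Of the 9 genes, 6 had enough counts to be tested. Between RA GFP+ and RA GFP- cells, 3 of these 6 were called, Sim1 and Gata3 higher and Lhx5 lower, where 16.9% of all tested genes were called (8.49% higher, 8.43% lower). With the replicate number as a block in the 6 RA libraries all 6 were called, 2 higher and 4 lower, and 5240 genes in place of 2838. Between SAG GFP+ and RA GFP+ cells, 2 of the 6 were called, Gata3 and Sim1, both lower, where 24.5% of all tested genes were called (9.78% higher, 14.8% lower). Between SAG GFP+ and RA GFP- cells, 2 of the 6 were called, Sim1 higher and Lhx5 lower, where 28.5% of all tested genes were called (12.0% higher, 16.5% lower). The median log2 fold change of the 6 was -0.91 in the RA comparison, -0.65 for SAG GFP+ over RA GFP+, and -0.66 for SAG GFP+ over RA GFP-, beside medians over all tested genes of -0.018, -0.017 and -0.009. These comparisons share their libraries pairwise and are not independent of each other. In bulk RNA, fewer cells of a class and less RNA per cell cannot be told apart.

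**Figure D1:**
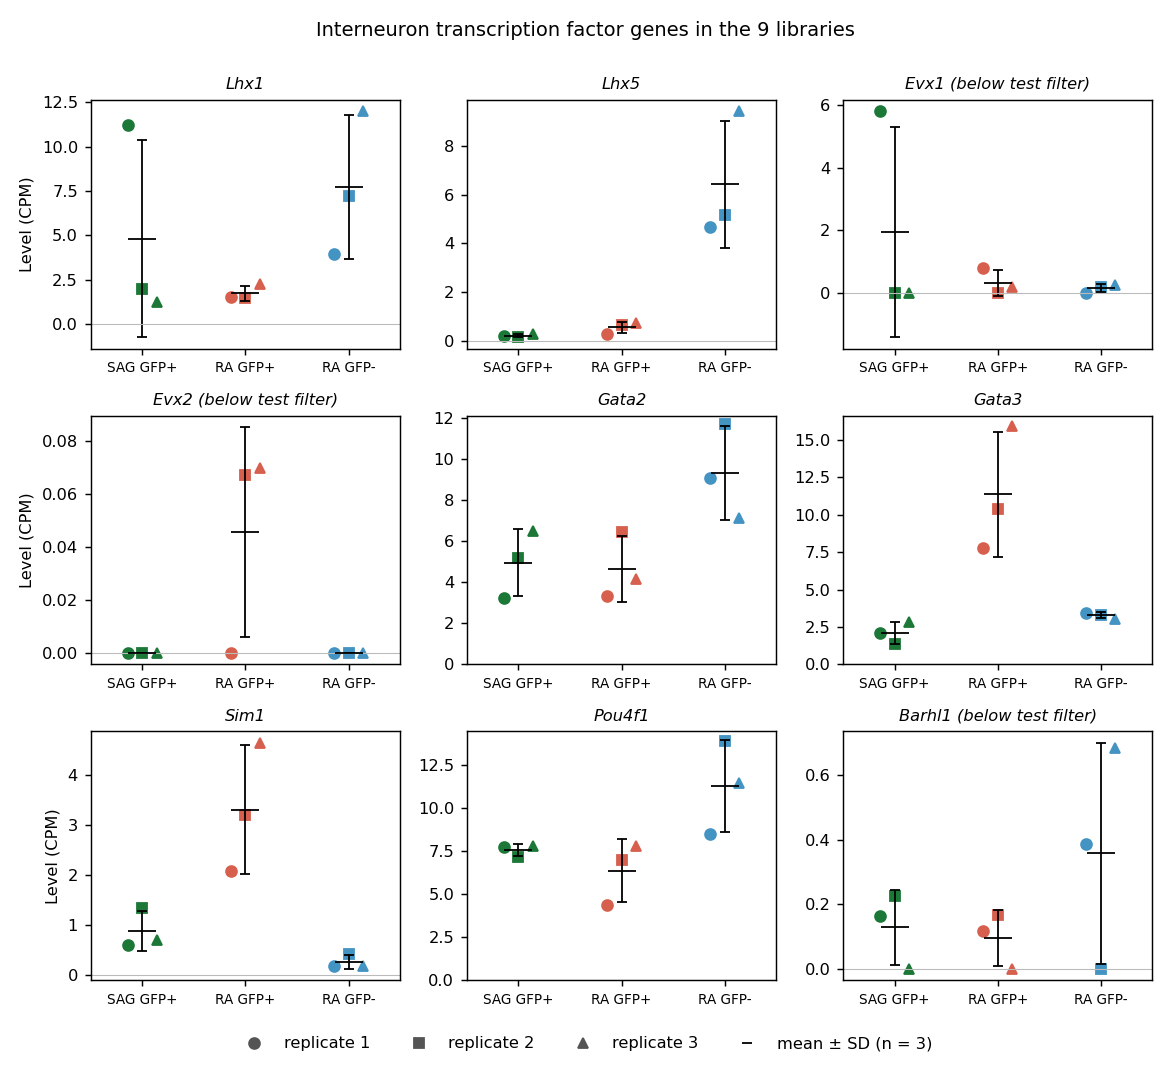
Level of each of the 9 genes in CPM (vertical axes, linear, 1 panel per gene) in SAG GFP+, RA GFP+ and RA GFP- libraries. Points are libraries and bars show the group mean with its SD (n = 3). Sim1 and Gata3 are highest in the RA GFP+ libraries, Lhx5 in the RA GFP- libraries, and the Lhx1 and Evx1 panels each show 1 high SAG GFP+ library, at 11.2 and 5.82 CPM.

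Sim1 (ENSMUSG00000019913, chromosome 10, 50894754 to 50989152, plus strand), a bHLH-PAS factor that V3 interneurons need to mature, separated all 3 populations. Its level was 0.611, 1.35 and 0.701 CPM in SAG GFP+ libraries, 2.08, 3.19 and 4.64 CPM in RA GFP+ libraries, and 0.177, 0.419 and 0.190 CPM in RA GFP- libraries. No library of one group fell within the range of another. The Sim1 counts were 15, 36 and 18 in SAG GFP+ libraries and 5, 11 and 5 in RA GFP- libraries. The separation of these 2 groups and the size of the folds over RA GFP- cells thus rest on few counts. Sim1 was 12.5-fold higher in RA GFP+ than in RA GFP- cells (log2 fold change 3.64, SE 0.53, adjusted p = 0.000795). It was 3.70-fold lower in SAG GFP+ than in RA GFP+ cells (log2 fold change -1.89, SE 0.47, adjusted p = 0.0124). It was 3.37-fold higher in SAG GFP+ than in RA GFP- cells (log2 fold change 1.75, SE 0.53, adjusted p = 0.0302). The RA comparison kept its call under every alternative run, with adjusted p between 6.62e-09 and 0.00528, but both SAG comparisons have calls that a single library can end. Without RA GFP+ replicate 3 the difference from RA GFP+ cells was -1.57 (adjusted p = 0.0544; range over all alternatives 0.00147 to 0.0544). The difference from RA GFP- cells was 1.55 (adjusted p = 0.0957) when RA GFP- replicate 1 was left out, 1.57 (adjusted p = 0.0805) when replicate 3 of that group was, and 1.34 (adjusted p = 0.123) without SAG GFP+ replicate 2. With only the groups compared in the fit its adjusted p was 0.0586, and the range over all alternatives was 0.0117 to 0.123.

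Other genes of the V3 lineage did not follow Sim1 throughout: Nkx2-2 went with it in some comparisons only, and Uncx in no called comparison. Nkx2-2, the homeodomain factor of the V3 progenitor domain, averaged 42.2 ± 8.34 CPM in SAG GFP+ cells, 2.44 ± 0.806 CPM in RA GFP+ cells and 0.0861 ± 0.0418 CPM in RA GFP- cells (SD, n = 3 each). Like Sim1 it was higher in RA GFP+ than in RA GFP- cells (log2 fold change 4.74, adjusted p = 3.65e-05) and in SAG GFP+ than in RA GFP- cells (log2 fold change 8.85, adjusted p = 1.39e-07). Unlike Sim1 it was higher in SAG GFP+ than in RA GFP+ cells, by 4.12 log2 units (adjusted p = 3.78e-06). Nkx2-9, which neighbours Nkx2-2 in the ventral progenitors, stood at 241, 217 and 190 CPM in SAG GFP+ libraries, 189, 133 and 75.6 CPM in RA GFP+ libraries, and 11.5, 8.8 and 3.84 CPM in RA GFP- libraries. It too was higher in RA GFP+ than in RA GFP- cells (log2 fold change 4.04, adjusted p = 6.53e-05), while SAG GFP+ over RA GFP+ gave 0.70 (adjusted p = 0.165). Uncx, a homeobox gene of postmitotic V3 cells, stood at 0.0407, 0.150 and 0 CPM in SAG GFP+ libraries and at 0.0392, 0.0672 and 0.488 CPM in RA GFP+ libraries, against 1.66, 2.21 and 3.12 CPM in RA GFP- libraries. It was lower in RA GFP+ than in RA GFP- cells by a log2 fold change of -3.51 (adjusted p = 0.0106), the comparison in which Sim1 was higher. Uncx was also lower in SAG GFP+ than in RA GFP- cells (log2 fold change -5.07, adjusted p = 0.0019), again opposite to Sim1. For Uncx, SAG GFP+ over RA GFP+ gave -1.57 and was not called (adjusted p = 0.315). Sim1 also marks the hypothalamus. The hypothalamus and forebrain list had 6 of 10 tested members higher and 1 lower in RA GFP+ than in RA GFP- cells, with a median of 2.13 log2 units. Its summed level ran between 6.23 and 7.68 CPM in SAG GFP+ libraries, 17.7 and 33.9 CPM in RA GFP+ libraries, and 7.12 and 11.4 CPM in RA GFP- libraries. Sim2, the paralogue of Sim1, was in this list and stood at 10.8, 8.33 and 1.99 CPM in RA GFP+ libraries, against 1.84, 0.876 and 0.419 CPM in RA GFP- libraries (log2 fold change 2.74, adjusted p = 0.0112). Otp, a partner of Sim1 in hypothalamic neurons, was lower in RA GFP+ than in RA GFP- cells (at most 0.349 CPM in RA GFP+ libraries and at least 1.02 CPM in RA GFP- libraries, log2 fold change -3.13, adjusted p = 0.034). The part of hypothalamic cells in the Sim1 level was not tested.

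Gata3 (ENSMUSG00000015619, chromosome 2, 9857078 to 9890034, minus strand), a zinc finger factor switched on in V2b cells as they leave the cell cycle, was highest in RA GFP+ cells. Its level was 2.08, 1.39 and 2.84 CPM in SAG GFP+ libraries, 7.76, 10.4 and 15.9 CPM in RA GFP+ libraries, and 3.46, 3.31 and 3.05 CPM in RA GFP- libraries. Every RA GFP+ library was above all others, and the SAG GFP+ libraries lay below the RA GFP- libraries. Gata3 was 3.46-fold higher in RA GFP+ than in RA GFP- cells (log2 fold change 1.79, SE 0.33, adjusted p = 0.00338) and 5.39-fold lower in SAG GFP+ than in RA GFP+ cells (log2 fold change -2.43, SE 0.34, adjusted p = 0.000396). Both calls held under all alternatives run. The difference between SAG GFP+ and RA GFP- cells was -0.64 log2 units (SE 0.34) and was not called (adjusted p = 0.179), although the ranges did not overlap. Of the exon bases of Gata3, 5.8% are shared with other annotated genes, and these had 0 counts in all 9 libraries.

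Gata2 (ENSMUSG00000015053, chromosome 6, 88193891 to 88207032, plus strand), which precedes Gata3 in the V2 lineage, took another order. It was measured at 3.22, 5.17 and 6.50 CPM in SAG GFP+ libraries, 3.33, 6.45 and 4.15 CPM in RA GFP+ libraries, and 9.11, 11.7 and 7.16 CPM in RA GFP- libraries. The RA GFP- libraries were above every GFP+ library, while the SAG GFP+ and RA GFP+ libraries covered the same range. Between RA GFP+ and RA GFP- cells the log2 fold change of Gata2 was -1.0 (SE 0.33), short of a call (adjusted p = 0.0631). With the replicate number as a block in the 6 RA libraries the difference was -1.03 (SE 0.21) and passed (adjusted p = 0.00374; range over all alternatives 0.00374 to 0.202). The difference between SAG GFP+ and RA GFP+ cells was 0.09 log2 units (SE 0.34, adjusted p = 0.869), and that between SAG GFP+ and RA GFP- cells was -0.91 (SE 0.33, adjusted p = 0.0628).

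The balance of the paralogues therefore differed between the populations. Per kilobase of exon, the level of Gata3 was 0.876, 0.364 and 0.593 times that of Gata2 in SAG GFP+ libraries, 3.16, 2.18 and 5.19 times in RA GFP+ libraries, and 0.515, 0.386 and 0.577 times in RA GFP- libraries. Gata3 exceeded Gata2 in all 3 RA GFP+ libraries and in none of the other 6. The V2 genes Tal1 and Sox14 were close to the limit of detection, and Foxn4 was above it. Tal1, the bHLH partner of Gata2 and Gata3 in V2b cells, reached at most 0.381 CPM in any library. Sox14 reached at most 0.163 CPM, beside a floor of 3 counts that corresponds to 0.101 to 0.122 CPM per library. Foxn4, the progenitor factor of the V2 domain, averaged 1.6 ± 0.483 CPM in SAG GFP+ cells, 0.746 ± 0.231 CPM in RA GFP+ cells and 3.26 ± 2.41 CPM in RA GFP- cells (SD, n = 3 each), and was lower in RA GFP+ than in RA GFP- cells (log2 fold change -2.12, adjusted p = 0.0174).

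Genes of other tissues that use GATA factors were also measured. The surface ectoderm and trophoblast list had summed levels of 104 CPM in SAG GFP+ replicate 1 and 28.3 and 31.1 CPM in the other SAG GFP+ libraries, 168 to 222 CPM in RA GFP+ libraries and 200 to 260 CPM in RA GFP- libraries. In SAG GFP+ cells 5 of its 10 tested members were lower than in RA GFP+ cells, with a median of -1.36 log2 units, and without SAG GFP+ replicate 1 this was 9 of 11 (median -2.82). In RA GFP+ cells 3 were higher and 3 lower than in RA GFP- cells, with a median of -0.39. Krt18, a simple-epithelial keratin, was 1.5 log2 units higher in RA GFP+ than in RA GFP- cells (adjusted p = 0.0033), and Trp63, a master gene of stratified epithelium, was 4.22 log2 units higher (adjusted p = 0.00143). Tfap2c, a gene of surface ectoderm and trophoblast, was instead lower, by a log2 fold change of -3.34 (adjusted p = 0.00175). The blood and endothelium list stood at 4.83 to 5.5 CPM in SAG GFP+ libraries, 16 to 21.5 CPM in RA GFP+ libraries and 50.6 to 75.8 CPM in RA GFP- libraries, with 2 of 6 tested members higher and 1 lower in RA GFP+ than in RA GFP- cells (median -0.39 log2 units). Its embryonic globins Hbb-bh1 and Hba-x had 0 counts in all libraries. Most of that sum in RA GFP- cells was Pecam1, an adhesion protein of endothelium and of embryonic stem cells, at 59.5, 40.7 and 68.4 CPM in RA GFP- libraries. The definitive and visceral endoderm list stood at 65.9 CPM in SAG GFP+ replicate 1 and 22.9 and 28.9 CPM in the other SAG GFP+ libraries, 88.1 to 149 CPM in RA GFP+ libraries and 46.1 to 77.2 CPM in RA GFP- libraries. In RA GFP+ cells 5 of its 8 tested members were higher than in RA GFP- cells (median 2.26 log2 units), and in SAG GFP+ cells 5 were lower than in RA GFP+ cells (median -1.99, or -3.42 without SAG GFP+ replicate 1), the directions of Gata3 and Sim1. The part of epithelial, endothelial or endodermal cells in the levels of Gata2 and Gata3 was not tested.

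**Figure D2:**
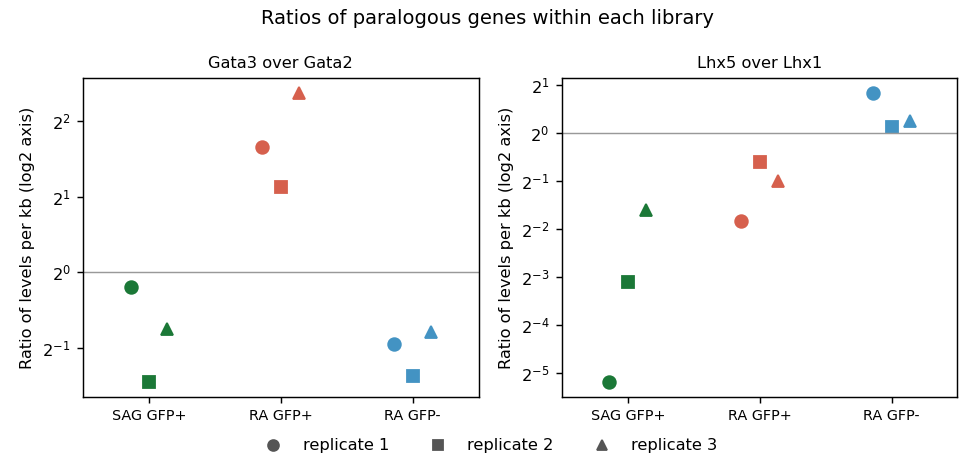
Ratio of the level of Gata3 to that of Gata2, and of Lhx5 to that of Lhx1, per kilobase of exon (vertical axis, log2 scale) in each SAG GFP+, RA GFP+ and RA GFP- library. Each point is 1 library. The Gata3 to Gata2 ratio lies between 2.18 and 5.19 in RA GFP+ libraries and below 1 in the others, while the Lhx5 to Lhx1 ratio lies above 1 in the RA GFP- libraries alone.

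Lhx5 (ENSMUSG00000029595, chromosome 5, 120431699 to 120441223, plus strand), a LIM homeodomain factor that keeps the inhibitory fate of dorsal horn neurons together with Lhx1, was nearly confined to RA GFP- cells. Its counts were 5, 4 and 7 in SAG GFP+ libraries, 7, 19 and 21 in RA GFP+ libraries, and 132, 136 and 248 in RA GFP- libraries. These correspond to 0.209 ± 0.0615 CPM in SAG GFP+ cells, 0.548 ± 0.242 CPM in RA GFP+ cells and 6.43 ± 2.62 CPM in RA GFP- cells (SD, n = 3 each). The RA GFP- libraries were far above all others, while the SAG GFP+ and RA GFP+ libraries met at 7 counts. Lhx5 was 11.5-fold lower in RA GFP+ than in RA GFP- cells (log2 fold change -3.53, SE 0.45, adjusted p = 0.000353) and 30.2-fold lower in SAG GFP+ than in RA GFP- cells (log2 fold change -4.92, SE 0.50, adjusted p = 3.55e-05). Both calls held under all alternatives run. The difference between SAG GFP+ and RA GFP+ cells, -1.39 log2 units (SE 0.52, adjusted p = 0.0749), rests on few counts and was not called.

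Lhx1 (ENSMUSG00000018698, chromosome 11, 84518284 to 84525535, minus strand), the close relative of Lhx5, varied widely within groups. Its level was 11.2, 1.95 and 1.25 CPM in SAG GFP+ libraries, 1.49, 1.48 and 2.23 CPM in RA GFP+ libraries, and 3.95, 7.2 and 12.0 CPM in RA GFP- libraries. All RA GFP- libraries were above all RA GFP+ libraries, and SAG GFP+ replicate 1 lay among the RA GFP- libraries while the other SAG GFP+ libraries lay among or just below the RA GFP+ libraries. Between RA GFP+ and RA GFP- cells the log2 fold change of Lhx1 was -2.15 (SE 0.72, adjusted p = 0.0625). With the replicate number as a block in the 6 RA libraries it was -2.07 (SE 0.27) and passed (adjusted p = 0.000237), and without SAG GFP+ replicate 1 in the fit it was -2.14 (SE 0.41) and also passed (adjusted p = 0.00375; range over all alternatives 2.72e-05 to 0.185). The SAG comparisons turn on that library. Over RA GFP+ cells the log2 fold change in SAG GFP+ cells was 1.47 (SE 0.71, adjusted p = 0.159) with it and -0.10 (SE 0.46, adjusted p = 0.894) without it. Over RA GFP- cells it was -0.68 (SE 0.68, adjusted p = 0.487) with it and -2.24 (SE 0.48, adjusted p = 0.00492) without it.

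Per kilobase of exon, the level of Lhx5 was 0.0274, 0.116 and 0.331 times that of Lhx1 in SAG GFP+ libraries, 0.279, 0.654 and 0.497 times in RA GFP+ libraries, and 1.78, 1.09 and 1.19 times in RA GFP- libraries. Lhx5 was thus the more abundant of the pair in RA GFP- libraries and the less abundant in all others. Pax2 and Lbx1, which accompany the pair in inhibitory neurons, were also highest in RA GFP- cells. Pax2, a paired-box gene of inhibitory dorsal and ventral interneurons, stood at 0.815, 0.787 and 0.818 CPM in SAG GFP+ libraries, 3.84, 3.33 and 3.56 CPM in RA GFP+ libraries, and 5.19, 11.4 and 12.7 CPM in RA GFP- libraries. It was lower in RA GFP+ than in RA GFP- cells (log2 fold change -1.45, adjusted p = 0.00962) and lower in SAG GFP+ than in RA GFP+ cells (log2 fold change -2.14, adjusted p = 0.00117). Lbx1, the homeobox gene of the dI4 to dI6 classes, had 0 counts in all SAG GFP+ libraries and 0.666, 0.336 and 1.74 CPM in RA GFP+ libraries, against 7.10, 9.07 and 11.2 CPM in RA GFP- libraries (log2 fold change of RA GFP+ over RA GFP- -3.31, adjusted p = 0.00286). En1, the homeobox gene of V1 interneurons, which also express Lhx1 and Lhx5, did not follow. It averaged 7.95 ± 2.62 CPM in SAG GFP+ cells, 0.816 ± 0.118 CPM in RA GFP+ cells and 1.42 ± 0.726 CPM in RA GFP- cells (SD, n = 3 each), and was 3.27 log2 units higher in SAG GFP+ than in RA GFP+ cells (adjusted p = 0.000296).

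**Figure D3:**
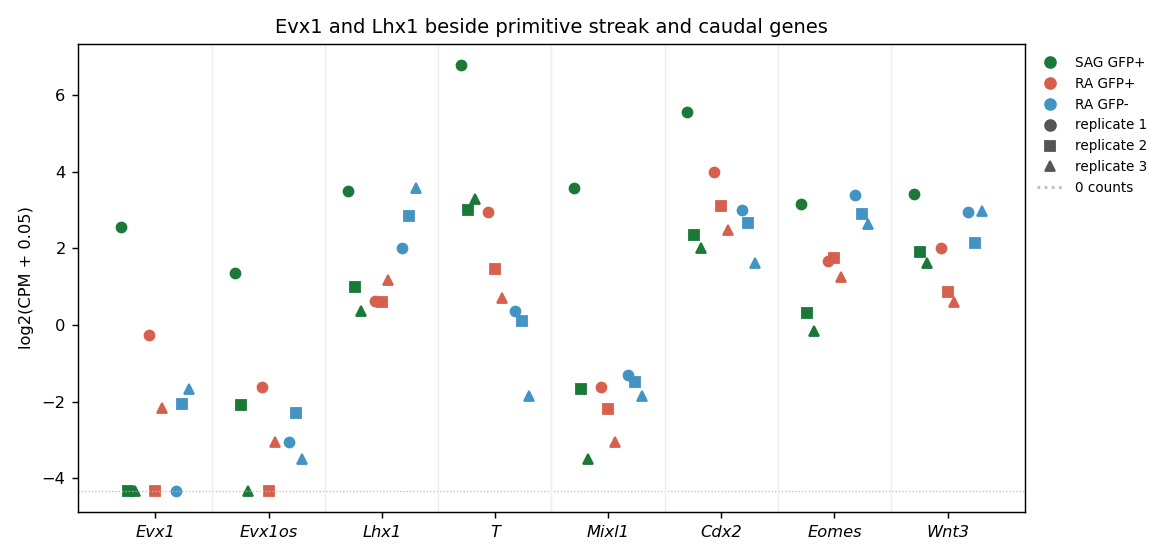
Level as log2(CPM + 0.05) (vertical axis) of Evx1, Evx1os, Lhx1 and the primitive streak and caudal genes T, Mixl1, Cdx2, Eomes and Wnt3 in SAG GFP+, RA GFP+ and RA GFP- libraries. Each point is 1 library, and the dotted line marks 0 counts. SAG GFP+ replicate 1 lies above the other SAG GFP+ libraries for each gene drawn, with T at 110 CPM against 7.94 and 9.81 CPM. The genes drawn are a selection. Cdx2 and Eomes come from the surface ectoderm and trophoblast list, and other genes of the streak list are not drawn. The tested genes of the streak list had a median of -0.03 log2 units in SAG GFP+ over RA GFP+ cells, with T higher and Osr1 and Chrd lower.

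Evx1 (ENSMUSG00000005503, chromosome 6, 52313498 to 52318378, plus strand), an even-skipped homeobox gene that sets the V0 ventral identity and is also active in the primitive streak, was too sparse to test. Its counts were 143, 0 and 0 in SAG GFP+ libraries, 20, 0 and 5 in RA GFP+ libraries, and 0, 5 and 7 in RA GFP- libraries. A single library thus held 143 of the 180 Evx1 counts in the table, and the groups overlapped. In a fit without the low-count filter edgeR called Evx1 higher in SAG GFP+ than in RA GFP+ cells (log2 fold change 2.61, SE 0.79, adjusted p = 0.0117) and than in RA GFP- cells (3.65, SE 0.86, adjusted p = 0.000561), which rests on that library, since the other SAG GFP+ libraries held no count. In the other SAG GFP+ libraries a count of 0 allows up to 0.112 and 0.117 CPM. Evx1os, the antisense transcript that shares 2.5% of the exon bases of Evx1, stood at 2.53, 0.187 and 0 CPM in SAG GFP+ libraries, with at most 0.274 CPM in any RA library. The strand setting of the counting is not known here, so reads in the shared bases cannot be assigned to either gene with certainty. The library with Evx1 was also the one with the highest Lhx1 of its group. In SAG GFP+ replicates 1, 2 and 3, Mixl1, a streak homeobox gene, stood at 11.9, 0.262 and 0.0389 CPM. Eomes, a T-box gene of the streak and of trophoblast, stood at 8.92, 1.20 and 0.856 CPM in the same libraries. Eomes is counted in the surface ectoderm and trophoblast list and not in the streak list. The streak, node and early mesoderm list summed to 177, 27.1 and 25.2 CPM in the SAG GFP+ libraries, 62.1, 36.2 and 36.2 CPM in the RA GFP+ libraries and 31.6, 16.9 and 24.2 CPM in the RA GFP- libraries. Of its 8 tested members, 1 was higher and 2 were lower in SAG GFP+ than in RA GFP+ cells (median -0.03 log2 units). The higher one was T (log2 fold change 3.43, adjusted p = 0.0239), and without SAG GFP+ replicate 1 it was not called (1.18, adjusted p = 0.177). The intermediate mesoderm and kidney list, which Lhx1 also marks, summed to 250 to 305 CPM in SAG GFP+ libraries, 310 to 426 CPM in RA GFP+ libraries and 189 to 286 CPM in RA GFP- libraries, nearly all of it from Sall1, a gene also active in neural progenitors. The part of streak or mesoderm cells in the levels of Evx1 and Lhx1 was not tested.

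Evx2 (ENSMUSG00000001815, chromosome 2, 74652991 to 74659557, minus strand), the second V0 factor, had 0, 2 and 2 counts in RA GFP+ libraries and 0 in every other library. A difference between groups was not detectable at this depth. Dbx1, the progenitor gene of the V0 domain, was abundant by comparison: it stood at 0, 0.112 and 0.0779 CPM in SAG GFP+ libraries, 0.666, 2.49 and 6.91 CPM in RA GFP+ libraries, and 16.9, 43.6 and 75.0 CPM in RA GFP- libraries. Dbx1 was lower in RA GFP+ than in RA GFP- cells (log2 fold change -3.74, adjusted p = 0.00377). The V0 to V3 list of other ventral interneuron genes had 6 of 12 members tested, of which 1 was higher and 1 lower in RA GFP+ than in RA GFP- cells (median -0.58 log2 units), the lower one being Uncx.

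Pou4f1 (ENSMUSG00000048349, chromosome 14, 104461676 to 104467999, minus strand), a POU homeodomain factor of dorsal excitatory interneurons and of sensory neurons, was measured at 7.74, 7.16 and 7.82 CPM in SAG GFP+ libraries, 4.35, 6.99 and 7.81 CPM in RA GFP+ libraries, and 8.51, 13.9 and 11.5 CPM in RA GFP- libraries. The RA GFP- libraries were above every other library, and the SAG GFP+ libraries fell within the span of the RA GFP+ libraries or at its upper edge. The log2 fold change of Pou4f1 was -0.82 in RA GFP+ over RA GFP- cells (SE 0.26, adjusted p = 0.0542). With the replicate number as a block in the 6 RA libraries it was -0.84 (SE 0.18) and passed (adjusted p = 0.00529; range over all alternatives 0.00529 to 0.183). It was 0.24 in SAG GFP+ over RA GFP+ cells (SE 0.26, adjusted p = 0.54) and -0.58 in SAG GFP+ over RA GFP- cells (SE 0.26, adjusted p = 0.123). Isl1, which is co-expressed with Pou4f1 in dI3 neurons and in sensory neurons, went another way: it stood at 3.71, 18.1 and 21.9 CPM in SAG GFP+ libraries, 4.12, 3.29 and 2.58 CPM in RA GFP+ libraries, and 0.988, 1.14 and 0.799 CPM in RA GFP- libraries. Isl1 was higher in RA GFP+ than in RA GFP- cells by 1.76 log2 units (adjusted p = 0.0452). Tlx3, a homeobox gene of dI3 and dI5 excitatory neurons, had 0 counts in all SAG GFP+ libraries, with 0.470, 0.0672 and 0.0349 CPM in RA GFP+ libraries and 1.02, 1.33 and 0.685 CPM in RA GFP- libraries (log2 fold change of RA GFP+ over RA GFP- -2.43, adjusted p = 0.074). The neural crest and sensory ganglia list summed to 117 CPM in SAG GFP+ replicate 1 and 311 and 364 CPM in the other SAG GFP+ libraries. Its sum was 76.6 to 97.0 CPM in RA GFP+ libraries and 73.8 to 82.3 CPM in RA GFP- libraries. Of its 10 tested members, 2 were higher and 2 lower in RA GFP+ than in RA GFP- cells (median -0.40 log2 units). The part of sensory neurons in the level of Pou4f1 was not tested.

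Barhl1 (ENSMUSG00000026805, chromosome 2, 28907679 to 28916668, minus strand), a homeobox gene of the dI1 commissural class, had 4, 6 and 0 counts in SAG GFP+ libraries, 3, 5 and 0 counts in RA GFP+ libraries, and 11, 0 and 18 counts in RA GFP- libraries. The groups overlapped and the gene was below the filter for testing. Its paralogue Barhl2, which acts with it in dI1 neurons, was measurable at 0.0815, 0.0375 and 0.117 CPM in SAG GFP+ libraries, 4.82, 4.37 and 1.43 CPM in RA GFP+ libraries, and 0.706, 0.533 and 0.190 CPM in RA GFP- libraries. Barhl2 was higher in RA GFP+ than in RA GFP- cells by 2.87 log2 units (adjusted p = 0.00537) and lower in SAG GFP+ than in RA GFP+ cells by a log2 fold change of -5.42 (adjusted p = 0.000274). Atoh1, the proneural gene from whose domain dI1 neurons arise, had 0 counts in every GFP+ library and at most 0.114 CPM in RA GFP- libraries.

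**Figure D4:**
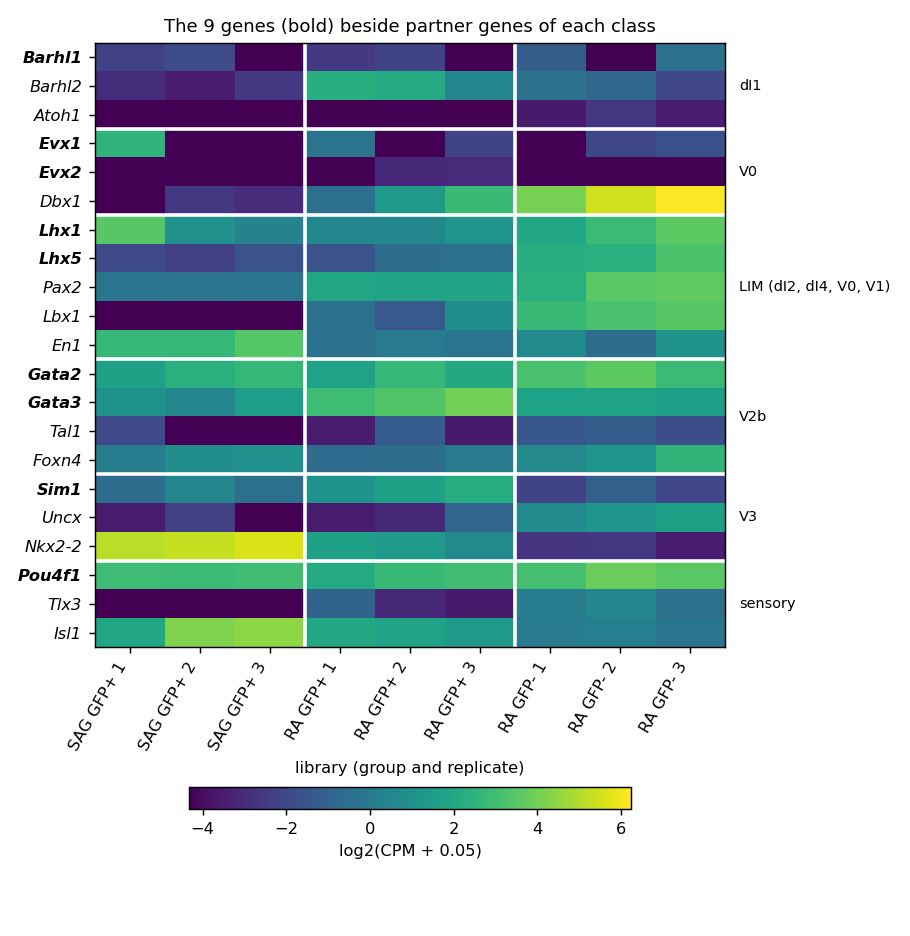
Level as log2(CPM + 0.05) (colour) of the 9 genes, in bold, and of other genes of the same neuron classes (vertical axis) in each library (horizontal axis). Sim1 is brightest in RA GFP+, Uncx in RA GFP- and Nkx2-2 in SAG GFP+ libraries, while Tal1 is low throughout.

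Ranked by level per kilobase of exon, the 9 genes took a different order in each population. In SAG GFP+ cells Pou4f1 led at 1.62 CPM per kilobase, before Lhx1 at 1.18, a mean set by replicate 1, and Gata2 at 0.919. In RA GFP+ cells Gata3 led at 2.85 CPM per kilobase, before Pou4f1 at 1.37 and Gata2 at 0.860. In RA GFP- cells Pou4f1 at 2.42 and Lhx5 at 2.39 CPM per kilobase stood together, before Lhx1 at 1.89 and Gata2 at 1.72. The libraries of neighbours in an order overlapped, except between Gata3 and Sim1 in SAG GFP+ cells, between Gata3 and Pou4f1 and between Gata2 and Lhx1 in RA GFP+ cells, and between Gata2 and Gata3, Gata3 and Barhl1, and Sim1 and Evx2 in RA GFP- cells. Evx2 was last in every group, and all 9 genes were below the median of all tested genes, which was 4.18, 4.25 and 4.3 CPM per kilobase in SAG GFP+, RA GFP+ and RA GFP- cells.

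**Figure D5:**
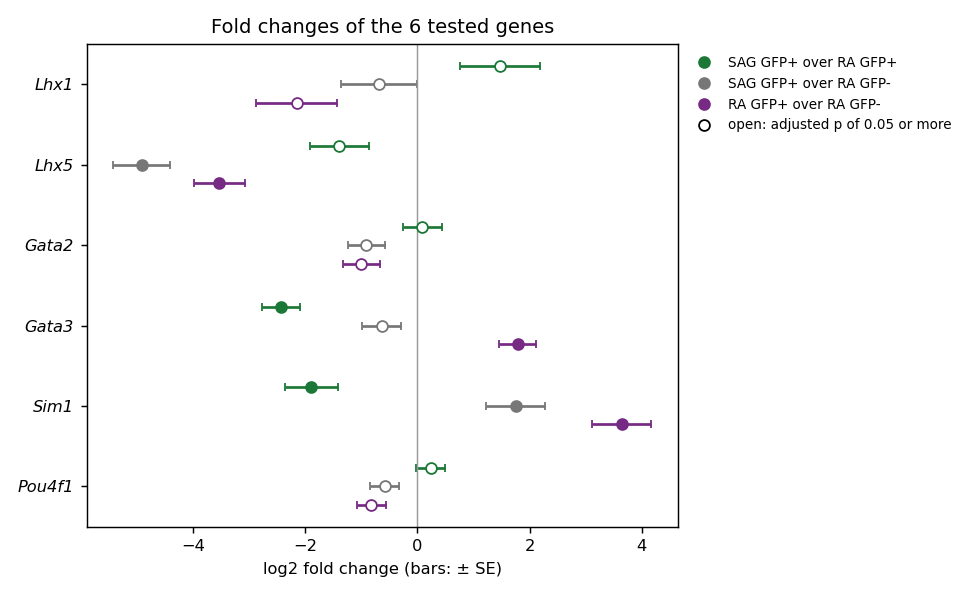
Log2 fold change (horizontal axis) of the 6 tested genes in each comparison, with bars of 1 SE. Filled points are called and open points are not. Sim1 at 3.64 and Lhx5 at -3.53 lie farthest apart in RA GFP+ over RA GFP-, and Gata3 and Sim1 are lower in SAG GFP+ over RA GFP+.

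The interneuron factors were read beside genes of neurons in general. The 15 pan-neuronal genes were all lower in RA GFP+ than in RA GFP- cells, with a median of -2.10 log2 units, so the factors that were higher there, Sim1 and Gata3, went against them. The summed level of the pan-neuronal genes was 487 CPM in SAG GFP+ replicate 1 and 660 and 773 CPM in the other SAG GFP+ libraries. It was 115 to 136 CPM in RA GFP+ libraries and 484 to 631 CPM in RA GFP- libraries. In SAG GFP+ cells 12 of the 15 were higher than in RA GFP+ cells, with a median of 2.39 log2 units, in the comparison where Gata3 and Sim1 were lower. Stmn2, a microtubule regulator of young neurons, averaged 159 ± 46.2 CPM in SAG GFP+ cells, 7.07 ± 1.04 CPM in RA GFP+ cells and 28.0 ± 4.67 CPM in RA GFP- cells (SD, n = 3 each). The dorsal interneuron list, with 12 of 14 members tested, had 3 members higher and 4 lower in RA GFP+ than in RA GFP- cells (median -0.13 log2 units), and 2 higher and 6 lower in SAG GFP+ than in RA GFP+ cells (median -1.12). The progenitor and proneural list had 3 of 13 tested members higher and 8 lower in RA GFP+ than in RA GFP- cells (median -2.12 log2 units). Neurog1, a proneural factor of dorsal classes, was among the lower ones (log2 fold change -4.25, adjusted p = 0.00353).

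Cofactors of LIM and GATA factors were read in the same libraries. Of 11 cofactors, all tested, 3 were higher and 2 lower in RA GFP+ than in RA GFP- cells (median 0.12 log2 units). Ldb1, the adaptor that LIM homeodomain factors bind, stood between 198 and 279 CPM in the 9 libraries and was not called in any comparison. Lmo3, a LIM-only protein that can compete for Ldb1, stood at 2.89, 3.63 and 2.06 CPM in SAG GFP+ libraries, 0.0392, 0.202 and 0.593 CPM in RA GFP+ libraries, and 3.14, 4.38 and 4.91 CPM in RA GFP- libraries. It was lower in RA GFP+ than in RA GFP- cells by a log2 fold change of -3.85 (adjusted p = 0.00121). Lmo2, which joins GATA and Tal1 complexes in blood, stood at 0.285, 0.300 and 0.584 CPM in SAG GFP+ libraries, 5.64, 1.85 and 2.44 CPM in RA GFP+ libraries, and 0.953, 0.762 and 0.799 CPM in RA GFP- libraries. It was higher in RA GFP+ than in RA GFP- cells by 1.97 log2 units (adjusted p = 0.0145) and lower in SAG GFP+ than in RA GFP+ cells (log2 fold change -3.07, adjusted p = 0.00127), the directions of Gata3.

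For the 3 called factors, likeness to every other tested gene was measured as the root mean square difference of log2 CPM over the 9 libraries, each gene centred on its mean. Nearest to Sim1 were Entpd3 at 0.47 and Col4a1 at 0.48, where the median over all genes was 1.49. Nearest to Gata3 were Jun at 0.27 and Col26a1 at 0.31, beside a median of 1.12. Nearest to Lhx5 were 4933413J09Rik at 0.38 and Lamp5 at 0.39, beside a median of 1.98. Sim1 and Gata3, which moved the same way in both called comparisons, were 1.07 apart, and Lhx1 and Lhx5 were 1.6 apart.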

How the data were processed

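Mouse neural tube organoids of 3 groups were sorted and their poly(A) RNA sequenced as directional libraries, 3 per group. The authors deposited raw read counts per Ensembl gene. The submitters' processing notes name the genome build GRCm38, featureCounts (Subread 1.6.2), Bowtie2 2.3.4.1 and Trim Galore 0.5.0. For the strand setting and multiply matching reads, the parameters were not given in the sources used here. Gene IDs were named with GENCODE M21. Groups follow the sample titles.

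From these counts, 16772 genes were kept (edgeR 4.0.16, filterByExpr with a minimum count of 10), scaled by TMM (factors 0.9717 to 1.029) and tested with the quasi-likelihood test on all 9 libraries, with Benjamini-Hochberg adjustment, in R 4.3.3. The common biological coefficient of variation was 0.226. The standard error is the log2 fold change divided by the root of F. A count of 0 allows up to 3 counts, a limit for counting error only. Alternatives were other scalings, no filter, DESeq2 1.42.0, fits of 2 groups, a replicate block, and leaving out each library.

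The replicate numbers appear to pair the RA libraries, which the labels do not state. Deviations from the group means of same-numbered RA GFP+ and RA GFP- libraries correlated at 0.273, 0.307 and 0.347. For same-numbered SAG GFP+ and RA libraries the correlations were mixed, between -0.0816 and 0.242, so a pairing of these was not established.

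All 9 genes are named in all comparisons, and from each list the called genes with the smallest adjusted p. Other genes of the same neuron classes were chosen after their values were seen. The members and lists were chosen with earlier results of these data known. Some genes of the lists are not reported here by name.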

Additional observations from a re-analysis of the deposited data

How the results depend on the processing

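Over 18 results for single genes, 257 alternative values were computed. Of these, 222 kept their direction and side of the threshold, 27 gained a call, 5 lost one and 3 changed sign. The sign changes were Lhx1 in SAG GFP+ over RA GFP+ without SAG GFP+ replicate 1 (-0.10), and Gata2 in the same comparison without RA GFP+ replicate 1 (-0.10) and without SAG GFP+ replicate 3 (-0.14). None of these was called. Leaving out each library in turn gave -0.10 to 1.93 for Lhx1 and -0.14 to 0.41 for Gata2.

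The members called in RA GFP+ over RA GFP- numbered 6 with no filter (which tests all 9), 5 with DESeq2, 5 with only the 2 groups fitted, 6 with a replicate block on all 9 libraries and 6 with a replicate block on the 6 RA libraries, against 3. They numbered 4 with no filter in SAG GFP+ over RA GFP+, against 2, Lhx1 and Evx1 being added. In SAG GFP+ over RA GFP- they numbered 4 with no filter, Gata2 and Evx1 being added, and 1 with only the 2 groups fitted, against 2. Leaving out each library gave 3 to 5 called genes in RA GFP+ over RA GFP- (5 without SAG GFP+ replicate 1), 1 to 3 in SAG GFP+ over RA GFP+ (1 without RA GFP+ replicate 3) and 1 to 3 in SAG GFP+ over RA GFP- (1 without RA GFP- replicate 1 or without SAG GFP+ replicate 2). Over all genes it gave 1783 (without RA GFP+ replicate 2) to 3368 calls, 2747 to 4972 calls and 3365 to 5876 calls in these comparisons. For RA GFP+ over RA GFP-, calls over all genes numbered 3607 with no filter, 3477 with DESeq2 and 3010 with only the 2 groups fitted. They numbered 3811 with the block on all 9 libraries and 5240 with the block on the 6 RA libraries, against 2838. With no filter, SAG GFP+ over RA GFP+ gave 4799 calls, against 4117. SAG GFP+ over RA GFP- gave 5736 calls with no filter and 3806 with only the 2 groups fitted, against 4787. The cause of these differences was not tested.

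With the block on all 9 libraries, Lhx5 in SAG GFP+ over RA GFP+ (adjusted p = 0.0387) and Gata2 in SAG GFP+ over RA GFP- (adjusted p = 0.0278) were called by edgeR. For the SAG pairs, deviations correlated at 0.111, -0.0816 and 0.182 with RA GFP+ and at 0.175, -0.0218 and 0.242 with RA GFP- libraries. Among the lists, leaving out SAG GFP+ replicate 1, an alternative chosen after seeing the data, moved the pan-neuronal calls in SAG GFP+ over RA GFP- to 10 (7 higher, 3 lower), against 6. The surface ectoderm and trophoblast calls in SAG GFP+ over RA GFP+ moved to 9, all lower, against 5. Intermediate mesoderm and kidney calls in SAG GFP+ over RA GFP- moved to 1, against 3, all lower. Low counts kept Evx1, Evx2 and Barhl1 from the test with the filter.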

Other observations

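The Hox neighbours of the Evx genes were also sparse. Hoxa13, which lies 52618 bases from Evx1, had at most 5 counts in any library. Hoxd13, which lies 8753 bases from Evx2, had 13, 3 and 1 counts in SAG GFP+ libraries, 21, 36 and 20 counts in RA GFP+ libraries, and 16, 14 and 2 counts in RA GFP- libraries.

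Transmitter genes were read in the same libraries. Gad1, which makes GABA, stood at 1.06, 0.487 and 0.350 CPM in SAG GFP+ libraries, 14.9, 4.84 and 7.04 CPM in RA GFP+ libraries, and 0.353, 0.381 and 0.647 CPM in RA GFP- libraries. It was higher in RA GFP+ than in RA GFP- cells by 4.26 log2 units (edgeR, adjusted p = 0.000394), the opposite direction to Lhx5. Slc32a1, the vesicular transporter of GABA and glycine, was lower there (log2 fold change -1.74, edgeR, adjusted p = 0.0291), and Gad2, the second GABA enzyme gene, gave 0.75 (edgeR, adjusted p = 0.319). Slc6a5, the glycine transporter of inhibitory spinal neurons, was lower in RA GFP+ than in RA GFP- cells by a log2 fold change of -3.94 (edgeR, adjusted p = 0.00736). Slc17a6, the vesicular glutamate transporter of V3 and dorsal excitatory neurons, reached at most 0.117 CPM in any library. The acetylcholine genes Chat and Slc18a3 were higher in SAG GFP+ than in RA GFP+ cells, by 5.79 and 3.31 log2 units (edgeR, adjusted p = 0.00538 and 0.00293).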
